A study of Homo sapiens with 6 samples.

Results

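The 10 genes described here encode the enzymes of serine synthesis and of the folate cycle in the cytosol and the mitochondria. They were taken by gene name from the deposited gene tables, where each of the 10 names matched 1 of 58735 rows. RNA sequencing of polyadenylated RNA was done in MOLT-3, a human T-cell acute lymphoblastic leukaemia line, and the study was made to look for genes under NOTCH1 control that bear on chemosensitivity. There were 3 libraries of MOLT-3 treated with compound E and 3 of MOLT-3 treated with DMSO. Compound E inhibits gamma-secretase, the protease that frees the active part of NOTCH receptors. The sources used here give neither dose nor duration. Gamma-secretase cuts other membrane proteins besides NOTCH, and a single cell line was used, so the comparison is of an inhibitor in 1 line.

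Serine is built from the glycolytic intermediate phosphoglycerate in 3 steps. PHGDH oxidises it, PSAT1 adds an amino group from glutamate, and PSPH removes the phosphate. Serine hydroxymethyltransferase then splits serine into glycine and a one-carbon unit carried by tetrahydrofolate, by SHMT2 in mitochondria and SHMT1 in the cytosol. In mitochondria MTHFD2 or its paralogue MTHFD2L oxidises the carried unit, MTHFD1L releases it as formate, and ALDH1L2 can instead burn it to carbon dioxide. Formate leaves for the cytosol, where the trifunctional MTHFD1 loads it onto folate again for purine and thymidylate synthesis. Proliferating lymphoid cells draw heavily on this pathway, and folate antagonists are a long-standing treatment of lymphoblastic leukaemia.

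Total counts were 18154037 to 18973990 in compound E libraries and 17316138 to 19845114 in DMSO libraries. Known NOTCH targets checked the treatment labels. HES4 had 1.91, 3.48 and 2.60 CPM with compound E, against 74.4, 84.7 and 79.9 CPM with DMSO, and DTX1 and HES1 had log2 fold changes of -4.60 and -2.16. CPM is the count scaled by library size and TMM factor. All 12 T-lineage markers were at 1 CPM or more, with summed levels of 4345 to 4458 CPM with compound E and 4456 to 4493 CPM with DMSO. TCF7 made up the largest share of that sum, and single markers differed both ways, with CD2 at 82.0 ± 4.28 CPM with compound E and 42.7 ± 1.39 CPM with DMSO, and CD1E at 176 ± 3.63 CPM with compound E and 280 ± 3.00 CPM with DMSO (SD, n = 3 each). Of 22 markers of B, myeloid, erythroid and epithelial or stromal cells, 3 reached 1 CPM, namely CD79A, ITGAM and COL1A1, and PAX5, MS4A1, CD22, MPO, HBB, COL1A2 and DCN had 0 counts in every library. Nothing in the labels tells whether the 3 libraries of a group came from separate cultures, and p-values reflect only how far these libraries scatter, which may be technical. In bulk RNA, fewer cells of a kind and less RNA per cell cannot be told apart.

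All 3 serine synthesis genes and 4 mitochondrial folate genes were lower with compound E, while the cytosolic pair split, SHMT1 higher and MTHFD1 slightly lower. Of the 10 genes 9 had enough counts to be tested, and 8 were called lower and 1 higher at an adjusted p under 0.05. Over all 16926 tested genes 19.4% were called lower, 18.9% higher and 38.3% in either direction. At least 2-fold lower and called were 5 of the 9, where the share over all tested genes was 2.63%. The median log2 fold change of the 9 was -1.18, beside -0.0034 over all tested genes. The genes were chosen with earlier results of these data known, so these shares describe them and are no independent test. Calls rest on quasi-likelihood tests in edgeR, with p adjusted by Benjamini-Hochberg across every tested gene.

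**Figure D1:**
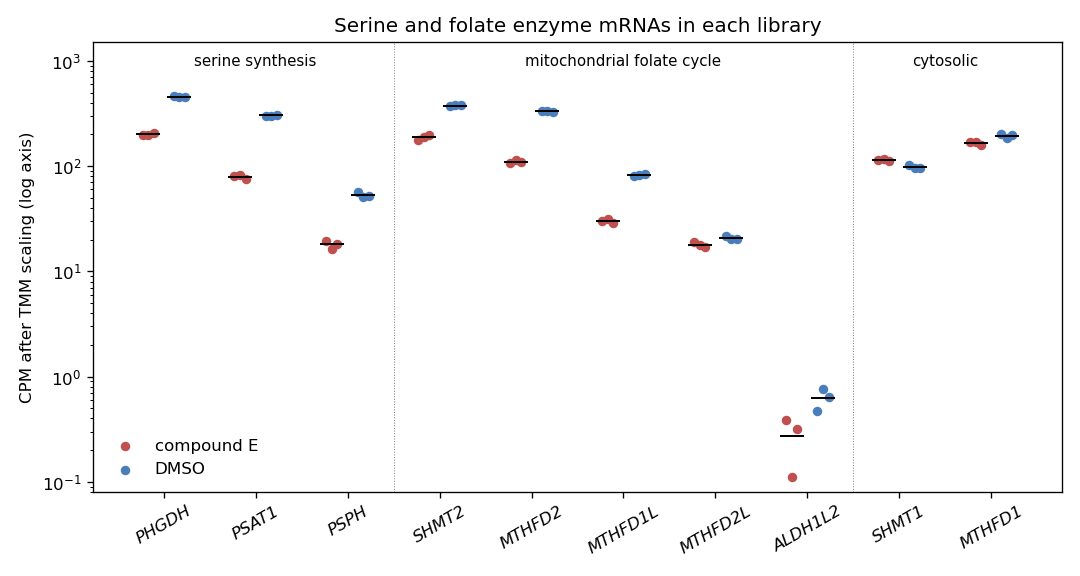
CPM after TMM scaling (log axis) of the 10 enzyme genes in each library, compound E left and DMSO right of each pair, with a point per library and a line at the mean of 3. The groups do not overlap for any of the 10 genes, against 46.8% of all tested genes without overlap, and the gaps are widest for the serine synthesis genes, MTHFD2 and MTHFD1L among genes above 10 CPM.

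The promoters of the genes that moved most, and of SHMT1, which went the other way, are shown to let their letters be compared. RefSeq windows on GRCh38.p14 were matched for 7 of the 10 genes by symbol: PHGDH, PSAT1, MTHFD2, MTHFD1L, MTHFD2L, SHMT1 and MTHFD1. Each line gives the 250 bases before an annotated start, 5′ to 3′ on the gene's own strand. Capitals mark a match, on either strand, to TGATGCAA (the C/EBP-ATF composite element through which ATF4 acts), CACGTG (the E-box bound by MYC and others), TGGGAA (the core of the RBPJ site, the DNA-binding partner of NOTCH) or CCAAT (bound by NF-Y).
PSAT1, chr9:78296875-78297124, plus strand: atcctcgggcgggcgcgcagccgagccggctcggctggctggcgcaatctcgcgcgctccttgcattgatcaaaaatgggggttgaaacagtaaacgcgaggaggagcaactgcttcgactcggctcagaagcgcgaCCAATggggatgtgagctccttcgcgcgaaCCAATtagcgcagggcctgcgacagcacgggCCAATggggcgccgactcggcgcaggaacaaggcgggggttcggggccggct
PHGDH, chr1:119711684-119711933, plus strand: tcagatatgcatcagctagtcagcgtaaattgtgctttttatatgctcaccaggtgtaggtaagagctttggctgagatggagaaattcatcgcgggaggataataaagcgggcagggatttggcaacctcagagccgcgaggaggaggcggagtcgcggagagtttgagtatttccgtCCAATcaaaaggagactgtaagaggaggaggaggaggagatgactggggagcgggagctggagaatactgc
MTHFD2, chr2:74198365-74198614, plus strand: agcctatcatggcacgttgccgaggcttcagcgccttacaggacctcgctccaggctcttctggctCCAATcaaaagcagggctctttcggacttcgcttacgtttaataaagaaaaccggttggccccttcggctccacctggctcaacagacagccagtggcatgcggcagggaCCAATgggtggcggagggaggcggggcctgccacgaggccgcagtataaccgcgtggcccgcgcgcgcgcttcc
MTHFD1L, chr6:150866236-150866485, plus strand: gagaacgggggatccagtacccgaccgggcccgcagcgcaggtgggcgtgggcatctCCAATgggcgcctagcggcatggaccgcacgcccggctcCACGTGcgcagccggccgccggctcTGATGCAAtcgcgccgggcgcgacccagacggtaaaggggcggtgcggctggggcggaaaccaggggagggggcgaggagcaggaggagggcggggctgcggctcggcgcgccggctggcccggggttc
SHMT1, chr17:18363551-18363800, minus strand: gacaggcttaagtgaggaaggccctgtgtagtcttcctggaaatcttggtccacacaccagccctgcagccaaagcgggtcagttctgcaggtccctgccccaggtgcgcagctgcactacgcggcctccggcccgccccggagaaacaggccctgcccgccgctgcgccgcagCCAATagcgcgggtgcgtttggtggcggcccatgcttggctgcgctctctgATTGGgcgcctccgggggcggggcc

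The composite element TGATGCAA was found for MTHFD1L alone among the 7 genes, 129 bases before the start shown, and 0.772% of all 35116 RefSeq windows of this length hold it. The same MTHFD1L window holds CACGTG at 154 bases, as does the MTHFD1 window at 15 bases, against 6.34% of all windows. MTHFD1L has 4 annotated windows, which overlap in part, and 2 of them hold both motifs. TGGGAA was matched in the MTHFD2L promoter only, at 142 and 96 bases, with a share of 20.8% over all windows. CCAAT, added after the letters were seen, occurs in 6 of the 7 genes, with 3 matches in PSAT1 at 113, 83 and 52 bases, and in 32.0% of all windows. A gene was counted where any of its windows held the motif (11 windows for the 7 genes), while the shares are per window. No 2 of the searched motifs overlapped in these windows. A match is a description of letters, not a site. Only these exact strings were searched, so a missing match says nothing of variant letters, or of bases beyond these 250.

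PSAT1, the aminotransferase of the pathway, had the largest fall. It lies on chromosome 9 at 78297143 to 78330093 on the plus strand (ENSG00000135069). Its levels were 80.0, 83.1 and 75.4 CPM with compound E, against 302, 301 and 307 CPM with DMSO. Every compound E library was below every DMSO library by a wide gap, and replicates within a group differed by little. The fold was 3.82 downwards, at a log2 fold change of -1.93 ± 0.0337 (SE, edgeR adjusted p = 1.37e-34), the 110th lowest of 16926.

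PSPH, the phosphatase of the last step, is on chromosome 7 at 56011051 to 56051604, minus strand (ENSG00000146733). It gave 19.6, 16.2 and 18.4 CPM in compound E libraries and 57.4, 50.6 and 52.0 CPM in DMSO libraries. The groups stayed apart although this was the most variable tested member, with a coefficient of variation of 9.48% with compound E and 6.72% with DMSO. It was 2.95-fold lower (log2 fold change -1.56 ± 0.0638, SE, edgeR adjusted p = 2.21e-22).

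PHGDH, which commits phosphoglycerate to serine, fell least of the 3. Its span is 119648411 to 119744226 on the plus strand of chromosome 1 (ENSG00000092621). It had 199, 197 and 207 CPM with compound E, against 460, 455 and 454 CPM with DMSO. The DMSO libraries agreed within a coefficient of variation of 0.803%. PHGDH was 2.27-fold lower, at a log2 fold change of -1.18 ± 0.0279 (SE, edgeR adjusted p = 3.14e-30). Within a library the ratio of PSAT1 to PHGDH in FPKM, counts per gene length and depth, was 1.69, 1.77 and 1.53 with compound E and 2.76, 2.79 and 2.85 with DMSO. The ratio of PSPH to PHGDH was 0.328, 0.274 and 0.296 with compound E and 0.416, 0.371 and 0.383 with DMSO. These ratios were set side by side after the values were seen and carry no test. Both were lower in every compound E library than in any DMSO library. Per kilobase of principal transcript, PSAT1 was below PHGDH, not above it, at ratios of 0.475, 0.498 and 0.430 with compound E and 0.774, 0.782 and 0.800 with DMSO.

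**Figure D2:**
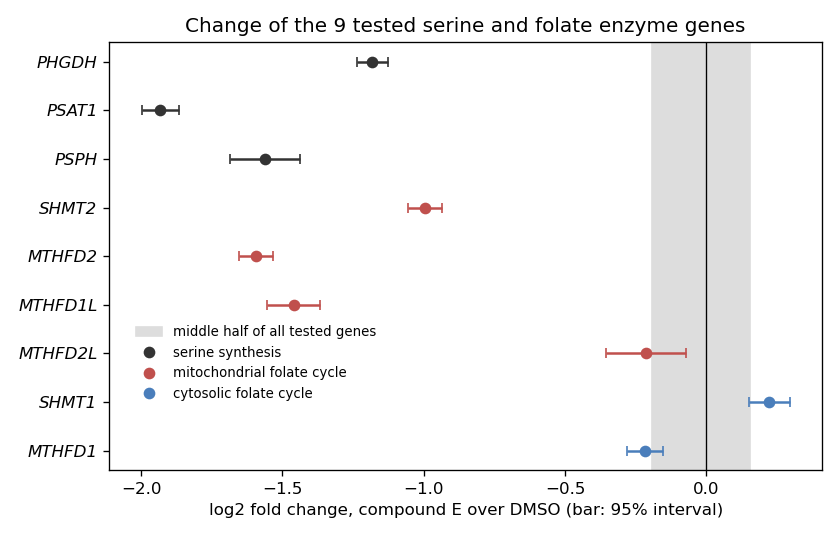
Log2 fold change of compound E over DMSO for the 9 tested genes, with points at the edgeR estimate, bars of the 95% interval, colour by role and a grey band that holds 50% of all tested genes (-0.19 to 0.16). PHGDH, PSAT1, PSPH, SHMT2, MTHFD2 and MTHFD1L lie far to the left of the band, and of the 9 points SHMT1 alone is right of 0.

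MTHFD2, the mitochondrial dehydrogenase and cyclohydrolase, had the second largest estimated fall. Its place is chromosome 2, 74198562 to 74217565, plus strand (ENSG00000065911). Levels were 106, 115 and 110 CPM with compound E, against 333, 337 and 327 CPM with DMSO. The 3.02-fold difference (log2 fold change -1.59 ± 0.0314, SE, edgeR adjusted p = 7.78e-33) was many times the spread within either group.

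MTHFD1L, the mitochondrial formate-tetrahydrofolate ligase, fell 2.75-fold. It is on chromosome 6 at 150865549 to 151101887, plus strand (ENSG00000120254). It had 29.9, 31.5 and 29.1 CPM with compound E, against 81.0, 82.9 and 85.0 CPM with DMSO. The groups were far apart, and the log2 fold change was -1.46 ± 0.0476 (SE, edgeR adjusted p = 1.36e-25).

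SHMT2, the mitochondrial hydroxymethyltransferase, was 2.00-fold lower, just short of the 2-fold line at a log2 fold change of -0.997 ± 0.0309 (SE, edgeR adjusted p = 2.41e-26). It lies at 57229327 to 57234935 on the plus strand of chromosome 12 (ENSG00000182199). Its values were 178, 190 and 198 CPM with compound E and 374, 377 and 379 CPM with DMSO. The compound E libraries varied more than the DMSO libraries, at coefficients of variation of 5.33% and 0.615%, without coming near them.

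MTHFD2L, the paralogue of MTHFD2, moved little. Its place is chromosome 4, 74114174 to 74303099, plus strand (ENSG00000163738). It had 18.9, 17.7 and 17.2 CPM with compound E, against 21.8, 20.2 and 20.3 CPM with DMSO. The groups did not overlap, as in 46.8% of all tested genes, but the gap was close to the spread within a group. The log2 fold change was -0.21 ± 0.0721 (SE, edgeR adjusted p = 0.0169). The call did not hold in DESeq2 (adjusted p = 0.0789), in limma on log2 FPKM (0.128 to 0.265) or in edgeR without compound E replicate 3 (0.0745) or DMSO replicate 1 (0.101).

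ALDH1L2, which turns mitochondrial formyl-tetrahydrofolate into carbon dioxide, was barely detected and not tested. Its counts were 7, 2 and 6 with compound E, against 9, 15 and 11 with DMSO. The groups did not overlap, at counts too low for the filter. In edgeR with no filter its log2 fold change was -1.17 ± 0.488 (SE, adjusted p = 0.0819 over 33506 genes). Leaving out compound E replicate 1 let it through the filter with an adjusted p of 0.0483 in edgeR, and leaving out compound E replicate 2 gave 0.251, so the value rests on single libraries.

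In the cytosol SHMT1 was the 1 member called higher. It is on the minus strand of chromosome 17 at 18327860 to 18363563 (ENSG00000176974). Levels were 115, 116 and 111 CPM with compound E, against 102, 95.4 and 95.7 CPM with DMSO. All compound E libraries lay above all DMSO libraries, by a 1.17-fold change in the mean (log2 fold change 0.22 ± 0.0366, SE, edgeR adjusted p = 4.00e-06). MTHFD1, the trifunctional cytosolic enzyme, sits on chromosome 14, 64388031 to 64463457, plus strand (ENSG00000100714). It had 171, 171 and 160 CPM with compound E and 200, 187 and 197 CPM with DMSO. That was a log2 fold change of -0.22 ± 0.0329 (SE, edgeR adjusted p = 9.49e-07), and the groups did not overlap.

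Ratios within a library were taken between enzymes that do like chemistry in different compartments, or as paralogues. Per library, SHMT2 was 2.32, 2.47 and 2.68 times SHMT1 in FPKM with compound E and 5.51, 5.95 and 5.95 times with DMSO. The ratio of MTHFD2 to MTHFD2L was 11.3, 13.1 and 12.9 with compound E and 30.8, 33.6 and 32.5 with DMSO. MTHFD1L stood at 0.326, 0.345 and 0.339 of MTHFD1 with compound E and at 0.756, 0.829 and 0.805 with DMSO. All 3 ratios were lower in every compound E library than in any DMSO library. The log2 ratios differed by -1.22, -1.38 and -1.24, compound E minus DMSO. Each gave p = 0.10 in a two-sided exact permutation test (n = 3 per group), the smallest p that 3 against 3 can give, and 0.10 after Benjamini-Hochberg adjustment over the 3 pairs. The ratios restate the changes of the single genes given above, so their tests add no separate evidence. Scaling between libraries cancels in such ratios, and so does gene length in their difference between the groups, but the size of a ratio rests on the length used. Per kilobase of principal transcript, a measure added after the data were seen, SHMT2 to SHMT1 averaged 1.61 ± 0.115 with compound E and 3.75 ± 0.164 with DMSO (SD, n = 3 each). MTHFD2 to MTHFD2L averaged 3.18 ± 0.244 with compound E and 8.27 ± 0.366 with DMSO on that scale, and MTHFD1L to MTHFD1 averaged 0.157 ± 0.00456 with compound E and 0.371 ± 0.0173 with DMSO.

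**Figure D3:**
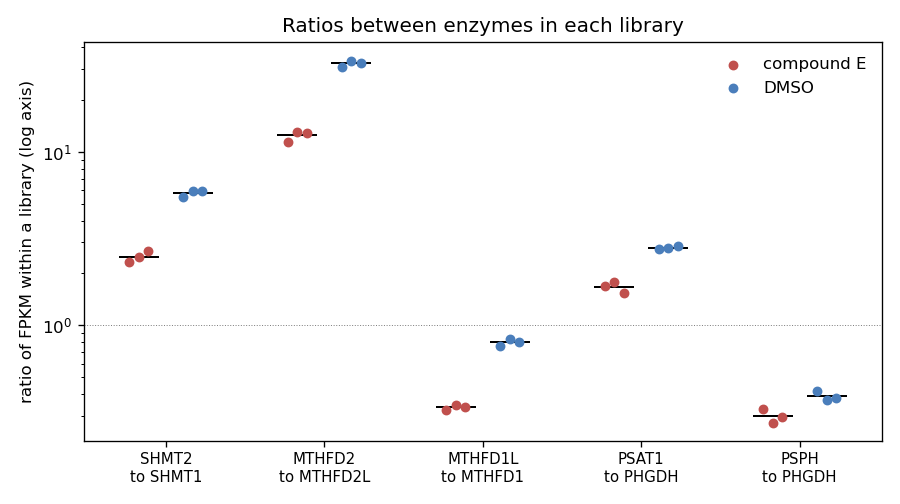
Ratio of FPKM between 2 enzymes within each library (log axis), compound E left and DMSO right of each pair, with a point per library and a line at the mean. In all 5 pairs the compound E points sit below the DMSO points, with the widest gap for MTHFD2 to MTHFD2L, at means of 12.4 with compound E and 32.3 with DMSO.

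Summed over the 3 serine synthesis genes, FPKM was 64.4 ± 0.943 with compound E and 206 ± 2.11 with DMSO (SD, n = 3 each), so the compound E sum was 31.3% of the DMSO sum. The 5 mitochondrial folate genes summed to 69.2 ± 2.58 FPKM with compound E and 163 ± 0.773 FPKM with DMSO, or 42.4%. For the cytosolic pair the sums were 33.4 ± 0.963 FPKM with compound E and 33.9 ± 1.22 FPKM with DMSO, a difference smaller than the spread within either group. Gene length sets the weight of each gene in these sums, so their shares rest on the length used. The order of levels in FPKM with compound E was SHMT2 at 38.8 ± 2.10, PSAT1 at 36.2 ± 1.77, MTHFD2 at 22.5 ± 0.863, PHGDH at 21.7 ± 0.571, MTHFD1 at 17.8 ± 0.638, SHMT1 at 15.6 ± 0.327, PSPH at 6.51 ± 0.612, MTHFD1L at 5.98 ± 0.241, MTHFD2L at 1.82 ± 0.0902 and ALDH1L2 at 0.0317 ± 0.0166. With DMSO it was PSAT1 at 137 ± 1.46, SHMT2 at 77.1 ± 0.362, MTHFD2 at 67.7 ± 1.04, PHGDH at 49.0 ± 0.470, MTHFD1 at 20.6 ± 0.769, PSPH at 19.1 ± 1.32, MTHFD1L at 16.4 ± 0.373, SHMT1 at 13.3 ± 0.540, MTHFD2L at 2.10 ± 0.0937 and ALDH1L2 at 0.0722 ± 0.0169. Neighbours whose ranges over 3 libraries overlapped were SHMT2 and PSAT1, MTHFD2 and PHGDH, and PSPH and MTHFD1L with compound E, and MTHFD1 and PSPH with DMSO. SHMT1 thus had rank 6 with compound E and rank 8 with DMSO.

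Some reads counted for these enzymes could belong to overlapping or similar genes. Rows named as pseudogenes of PSAT1, PSPH, SHMT1, MTHFD1 and MTHFD2 numbered 14 and held 41 counts over the 6 libraries, at most 0.245% of the parent's counts, for SHMT1. The sources used here do not say how reads with several matches, or strands, were handled. SHMT2 overlaps NDUFA4L2 on the opposite strand, which had 14, 14 and 20 counts with compound E and 99, 88 and 82 with DMSO (log2 fold change -2.45 ± 0.212, SE, edgeR adjusted p = 2.00e-12). MTHFD2 overlaps SLC4A5 on the opposite strand, with 6, 6 and 4 counts with compound E, against 27, 25 and 29 with DMSO (log2 fold change -2.28 ± 0.370, SE, edgeR adjusted p = 3.16e-06). Both partners moved with the enzyme, and the part of shared reads in this was not tested. In compound E replicate 1 the counts were 3256 for SHMT2 and 1945 for MTHFD2, far above those of the partners. SHMT1 overlaps SMCR8, which had 2096, 2136 and 2212 counts with compound E and 2190, 2359 and 2009 with DMSO, about as many as SHMT1 itself at 2110, 2091 and 2096 with compound E and 1972, 1891 and 1656 with DMSO. MTHFD1 overlaps ZBTB25, at 702 to 757 counts with compound E and 645 to 839 with DMSO. Neither was called, at log2 fold changes of 0.0070 ± 0.0344 for SMCR8 and -0.036 ± 0.0549 for ZBTB25 (SE). ALDH1L2 overlaps C12orf45, at 831 to 919 counts with compound E and 737 to 833 with DMSO, far above the 2 to 15 counts of ALDH1L2. C12orf45 was called higher, at a log2 fold change of 0.21 ± 0.0499 (SE, edgeR adjusted p = 8.57e-04). That call was lost with limma on log2 FPKM (adjusted p = 0.123 to 0.274).

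The other genes of serine, glycine, folate and methionine metabolism were counted from 8 lists that hold 69 genes. Of 57 tested, 23 were called lower and 4 higher, beside the 19.4% and 18.9% over all tested genes, and the median log2 fold change was -0.10. The higher calls fell to 1 to 2 with DESeq2, with limma on FPKM and without DMSO replicate 2.

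Serine and glycine transporters were lower in 5 of 9 tested genes and higher in 0, beside the 19.4% and 18.9% over all tested genes. SLC6A9, a glycine transporter, had 2.74, 3.26 and 2.87 CPM with compound E, against 31.2, 29.3 and 30.9 CPM with DMSO. SLC1A4, an exchanger of alanine, serine and cysteine, had 48.1, 43.6 and 46.6 CPM with compound E and 128, 135 and 128 CPM with DMSO. Both sets were widely separated, at log2 fold changes of -3.36 ± 0.0973 and -1.50 ± 0.0416 (SE). The glutamine and neutral amino acid carriers SLC1A5 and SLC38A1 fell by 0.99 and 0.60 on the log2 scale. SFXN1, the carrier of serine into mitochondria, was at 136 ± 2.96 CPM with compound E and 134 ± 4.35 CPM with DMSO (SD, n = 3 each) and did not pass (edgeR adjusted p = 0.733).

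Transsulfuration turns homocysteine and serine into cysteine, and its list here also holds genes of cysteine use, MPST and CSAD among them. All 4 tested genes of that list were called lower, beside the 19.4% over all tested genes. They were CBS, which joins serine to homocysteine, at -1.07 ± 0.0742 (log2 fold change, SE), CTH at -0.57 ± 0.164, the sulfurtransferase MPST at -0.44 ± 0.0446 and CSAD at -0.21 ± 0.0854. CBS is uncertain, since its reads may be split with its near-identical copy CBSL. CBS took 316, 335 and 333 counts with compound E and 686, 854 and 575 with DMSO. CBSL took 109, 246 and 103 counts with compound E and 349, 210 and 222 with DMSO. CSAD lost its call in 12 of 17 alternatives, DESeq2 among them (adjusted p = 0.153). In the glycine cleavage system 2 of 4 tested were called lower, beside the 19.4% over all tested genes. DLD, the dihydrolipoamide dehydrogenase it shares with other complexes, was lower at -0.11 ± 0.0341 (log2 fold change, SE) with overlapping groups, and lost its call with limma on log2 FPKM (adjusted p = 0.102 to 0.184) and in edgeR without compound E replicate 1 (0.0634), DMSO replicate 1 (0.0770) or DMSO replicate 3 (0.0702). GLDC, its decarboxylase, was at 1.84 ± 0.544 CPM with compound E and 3.13 ± 0.708 CPM with DMSO (SD, n = 3 each), and lost its call in edgeR without DMSO replicate 2 (adjusted p = 0.0709).

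Among folate uptake and retention genes 2 of 4 tested were called higher, beside the 18.9% over all tested genes. FPGS, which adds the glutamate tail that holds folates and methotrexate in cells, was at 0.30 ± 0.0357 (log2 fold change, SE). GGH, which removes that tail, was at 0.43 ± 0.0892. The reduced folate carrier SLC19A1 was lower, at -0.19 ± 0.0460, and lost its call with limma on FPKM (adjusted p = 0.0508 to 0.0953). Of 11 other folate enzymes tested 3 were called lower, beside the 19.4% over all tested genes. They were the purine enzymes GART at -0.18 ± 0.0327 and ATIC at -0.21 ± 0.0402 and the sarcosine dehydrogenase SARDH at -0.24 ± 0.0565. TYMS, thymidylate synthase, was at 136 ± 5.64 CPM with compound E and 129 ± 2.57 CPM with DMSO and did not pass (edgeR adjusted p = 0.0768).

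In the methionine cycle 3 of 12 tested genes were lower and 0 higher, a share close to the 19.4% called lower over all tested genes. AHCY, which removes adenosylhomocysteine, was at 193, 190 and 191 CPM with compound E, against 267, 271 and 275 CPM with DMSO, and fell by 0.50 on the log2 scale. AHCYL2, an AHCY-like gene, was lower at -0.32 ± 0.0556 (log2 fold change, SE). The methionine synthase MTR was lower at -0.12 ± 0.0340 and lost its call with limma on log2 FPKM (adjusted p = 0.0579 to 0.0895) and in edgeR without compound E replicate 1 (0.0590). MAT2A, which makes adenosylmethionine, stood at 471 ± 11.3 CPM with compound E and 456 ± 6.26 CPM with DMSO (edgeR adjusted p = 0.167). Among genes that use or break down serine 2 of 8 tested were lower, again close to the 19.4% over all tested genes, namely PTDSS1 of phosphatidylserine synthesis at -0.44 ± 0.0311 and the serine palmitoyltransferase subunit SPTLC3, near 1 CPM, at -0.96 ± 0.257.

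Of the 5 listed regulators 3 were called lower and 1 higher, beside the 19.4% and 18.9% over all tested genes. ATF4, the transcription factor that drives serine synthesis genes when amino acids are short, had 351, 361 and 360 CPM with compound E, against 748, 740 and 741 CPM with DMSO, a log2 fold change of -1.06 ± 0.0253 (SE, edgeR adjusted p = 4.75e-30). MYC, which also acts on these genes, had 219, 214 and 225 CPM with compound E and 385, 393 and 403 CPM with DMSO, and NFE2L2 fell by 0.42 on the log2 scale. KDM4C was called higher at 0.13 ± 0.0504 and lost the call in 13 of 17 alternatives. Whether these changes bear on the enzymes was not tested.

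**Figure D4:**
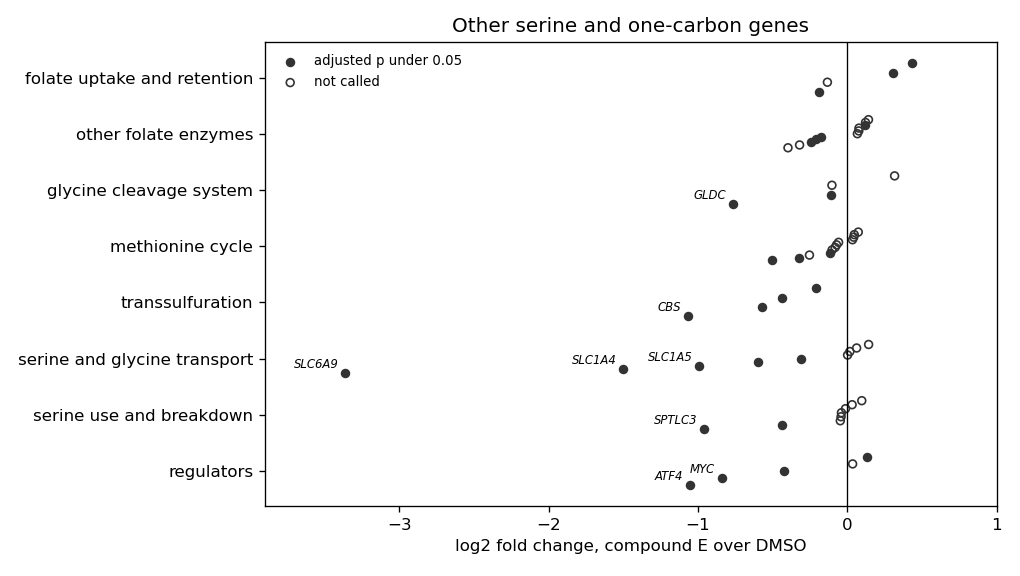
Log2 fold change of compound E over DMSO for the 57 tested genes of 8 lists, 1 point per gene, filled where the edgeR adjusted p was under 0.05, with names at called changes of 0.7 or more. The points reach farthest left among serine and glycine transporters, with SLC6A9 at -3.36, and most folate and methionine genes sit near 0.

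Genes whose profile over the 6 libraries lay nearest to PSAT1 and MTHFD2 were sought among the 10117 protein-coding genes that averaged 5 CPM or more. The measure was the root mean square distance between log2 CPM profiles, each taken relative to the gene's own DMSO mean, with the 10 enzymes themselves left aside, a description that the 2 groups dominate. Nearest to PSAT1 were RNF152 (distance 0.0497), BCAT1 (0.0780), the cytosolic aminotransferase of branched-chain amino acids, and RCBTB2 (0.0850). Nearest to MTHFD2 were CD40LG (0.0186), SERINC5 (0.0272) and the amino acid transporter SLC7A5 (0.0479). BCAT1 averaged 58.9 ± 2.78 CPM with compound E and 210 ± 7.07 CPM with DMSO, and SLC7A5 averaged 285 ± 5.92 CPM with compound E and 849 ± 6.34 CPM with DMSO (SD, n = 3 each).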

How the data were processed

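Counts per gene, which the authors deposited without normalisation, were read for 3 compound E and 3 DMSO libraries. FPKM values, deposited by the authors in a second table, equalled count divided by gene length and by 1 scaled depth per library. The submitters' processing notes name HISAT2 2.0.5, featureCounts 1.5.0-p3 and DESeq2 1.16.1, with no role or order. The sources used here name no genome build, but all 58735 identifiers matched GENCODE release 29 in start, end, strand and name, so coordinates are on GRCh38.

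Genes were filtered by filterByExpr (16926 left), scaled by TMM and tested in edgeR 4.0.16 (R 4.3.3) by the quasi-likelihood F-test with treatment as the only term. Standard errors are the log2 fold change over the square root of F; log2 values were computed here. The fit was tested on simulated counts with known changes. Within-group pairs of libraries differed by more than sampling noise (chi-square per degree of freedom 1.66 to 2.77).

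The members, the lists and the rule for named genes were chosen with earlier results of these data known. That rule took all members, the called genes of each list with the smallest p and the 3 nearest profiles. Not every called gene is named. Alternatives were other scalings, filters and tests (DESeq2 1.42.0, limma 3.58.1), limma on log2 FPKM, a replicate block and leaving out each library. Levels per principal transcript were added after the data were seen. Motifs were searched in RefSeq promoter windows. The comparison used all 6 libraries. The values of 1 listed gene are not reported here.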

Additional observations from a re-analysis of the deposited data

How the results depend on the processing

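The direction of all 9 tested members held under all 17 alternatives run, and each kept its call except MTHFD2L, which lost it in 6. Log2 fold changes ranged from -1.96 to -1.89 for PSAT1, -1.62 to -1.54 for MTHFD2, -1.62 to -1.42 for PSPH, -1.49 to -1.32 for MTHFD1L, -1.20 to -1.14 for PHGDH, -1.03 to -0.96 for SHMT2, -0.25 to -0.19 for MTHFD1, -0.25 to -0.14 for MTHFD2L and 0.21 to 0.26 for SHMT1. Members called lower numbered 7 to 9, the 9 where ALDH1L2 passed the filter without compound E replicate 1. No scaling moved the median of all genes by more than 0.1. Over all genes, limma on log2 FPKM called 2120 lower with a pseudocount of 1, 2100 with 0.1 and 1874 lower and 2128 higher with no filter, against 3278 and 3206 in the reported fit. Of the other serine and one-carbon genes, 23 lower and 4 higher, those higher numbered 2 with DESeq2, 2 with limma on FPKM at either pseudocount, 1 without a filter, where 14 were lower, and 2 to 4 as each library was left out. The cause was not tested. No shared effect of the replicate number was seen (correlations of deviations 0.0103, -0.0191 and 0.000118 for numbers 1, 2 and 3). This cannot tell whether libraries were prepared in pairs. With the replicate block edgeR called 8 members lower and 1 higher, and 6138 genes in all against 6484. The 3 tested ratios kept their direction under every alternative run. Depth limits ALDH1L2, where 15 counts were the most in a library. SMCR8, which was not called at a log2 fold change of 0.0070, was at -0.0086 with upper quartile scaling, at -0.0056 with the stricter filter of 5 CPM in 3 libraries and at -0.0080 to 0.026 as each library was left out. Limma on FPKM without a filter also ended the calls of ATIC, CTH, GGH, GLDC, SARDH and SPTLC3 (adjusted p = 0.0507 to 0.237), and TYMS was called higher in edgeR without compound E replicate 1 (adjusted p = 0.0205).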

Other observations

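The order of the enzymes' levels depended on the length used. The deposited FPKM divides by the whole gene model, which is 9217 bases for PHGDH and 2188 for PSAT1, while the principal transcripts of GENCODE release 29 are 2585 and 2188 bases. Per kilobase of principal transcript, a measure added after the data were seen, PHGDH led with 77.8 ± 2.03 CPM with compound E and 177 ± 1.42 CPM with DMSO (SD, n = 3 each). SHMT2 followed at 74.4 ± 3.97 CPM with compound E and 148 ± 0.913 CPM with DMSO, and PSAT1 stood at 36.3 ± 1.77 CPM with compound E, rank 5, and 139 ± 1.53 CPM with DMSO, rank 3. On this scale SHMT1 at 46.3 ± 0.982 CPM and MTHFD1 at 53.4 ± 1.94 CPM were above PSAT1 and MTHFD2 (24.7 ± 0.925 CPM) with compound E. With DMSO both were below them, at 39.7 ± 1.55 and 62.1 ± 2.25 CPM, against 139 ± 1.53 CPM for PSAT1 and 74.7 ± 1.14 CPM for MTHFD2. The fold change of a single gene between the groups does not depend on this length, while that of a sum over genes does.

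Of the 69 other listed genes 12 had too few counts to be tested. FOLR1, a folate receptor, SLC7A10, a serine and glycine exchanger, and SDSL, a serine dehydratase-like gene, had 0 counts in every library, which allows up to 0.158 to 0.165 CPM in a compound E library and 0.151 to 0.173 CPM in a DMSO library, for counting error only. ALDH1L1, the cytosolic counterpart of ALDH1L2, had 2, 0 and 2 counts with compound E and 1, 0 and 1 with DMSO. CDO1, of cysteine breakdown, had 7, 5 and 7 counts with compound E and 16, 10 and 14 with DMSO. Its groups did not overlap, as in 46.8% of all tested genes, at counts too low for the filter.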
